A study of Mus musculus with 8 samples.

Results

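The epithelial sodium channel (ENaC) and principal cell genes were followed in sorted distal convoluted tubules (DCT) of the mouse kidney. The set was named as 10 genes and read through probe sets that carry exactly 1 gene symbol, which left 9 of the 10 among 18782 genes measured in this way. Each of the 9 had 1 such probe set. Avpr2, the vasopressin V2 receptor, shares its probe set with Arhgap4 and is not given a value. The comparison was between 4 arrays of TBC1D4-deficient and 4 arrays of wild-type tubules, all from male C57/Bl6 mice aged 8 weeks, and addresses which DCT genes change without TBC1D4, a Rab GTPase-activating protein that restrains vesicle traffic. Mice of both genotypes were crossed to the transgenic line PV-EGFPwt/tg, in which the parvalbumin promoter drives EGFP, and fluorescent tubules were collected by large-particle sorting (COPAS). Parvalbumin marks the early part of the DCT.

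ENaC is built from alpha, beta and gamma subunits and carries sodium across the apical membrane of the aldosterone-sensitive distal nephron, which runs from the late DCT through the connecting tubule into the collecting duct. Aldosterone acts through the mineralocorticoid receptor, and in kidney it raises mainly the alpha subunit transcript. Principal cells of the collecting duct carry ENaC together with the water channels AQP2, AQP3 and AQP4. Vasopressin moves AQP2 to the apical membrane through cyclic AMP.

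The arrays matched their labels. Tbc1d4 was at intensities of 5.59, 6.59, 5.65 and 4.64 in TBC1D4-deficient replicates 1 to 4, against 103.2, 111.0, 95.6 and 122.8 in wild-type replicates 1 to 4 (limma adjusted p = 6.35e-08). With the TBC1D4-deficient arrays held at no less than a log2 value of 2.50, the 95th percentile of 990 olfactory receptor genes, which 3 of the 4 did not exceed, it was at least 18.3-fold lower in TBC1D4-deficient tubules. It was the 1 probe set of 23039 past an adjusted p of 0.05 (0.00434%). Genes of the DCT stood at similar levels in both genotypes, which does not test how pure the tubules were. The parvalbumin promoter marked the tubules for collection, so Pvalb does not test the DCT label. Slc12a3, the thiazide-sensitive cotransporter, averaged 11.49 ± 0.02 in TBC1D4-deficient and 11.49 ± 0.05 in wild-type arrays, and Pvalb averaged 9.75 ± 0.09 and 9.68 ± 0.08 (log2 intensity, SD, n = 4 each). Pearson correlations between arrays over all probe sets ran from 0.993 to 0.997. The labels do not say that each sample came from its own mouse, so the p-values speak only of the spread among the samples, and in bulk tubules fewer cells of a type cannot be told apart from less RNA per cell. All values below are log2 intensities, differences are TBC1D4-deficient minus wild-type, and intervals are 95% confidence intervals. Probe sets differ in how brightly they read a transcript, so levels are compared within a gene only.

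None of the 9 genes differed between genotypes beyond the spread of the arrays. The count was 0 of 9 past the threshold of an adjusted p of 0.05, and 0 of 9 at an unadjusted p below 0.05, which 2.9% of all probe sets reached. In 0 of 9 did the genotypes separate without overlap, against 1.85% of all probe sets. The difference was above 0 for 1 gene, Scnn1a, and below 0 for 8, where 49.1% of all probe sets were above 0, with a median of -0.07 on the log2 scale, beside -0.000742 over all 18782 genes. Within the arrays whose descriptions are numbered 5 to 8 the count was again 1 above and 8 below 0, and in the set numbered 9 to 12 it was 5 above and 4 below. The 95% interval lay inside 1.5-fold for 8 of the 9, beside 97.4% of all probe sets, and Aqp2 was the exception. Aqp4 and Elf5, counted here and among the 8 below 0, averaged under the 95th percentile of the olfactory receptor genes. Their intervals thus bound no difference in expression.

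**Figure D1:**
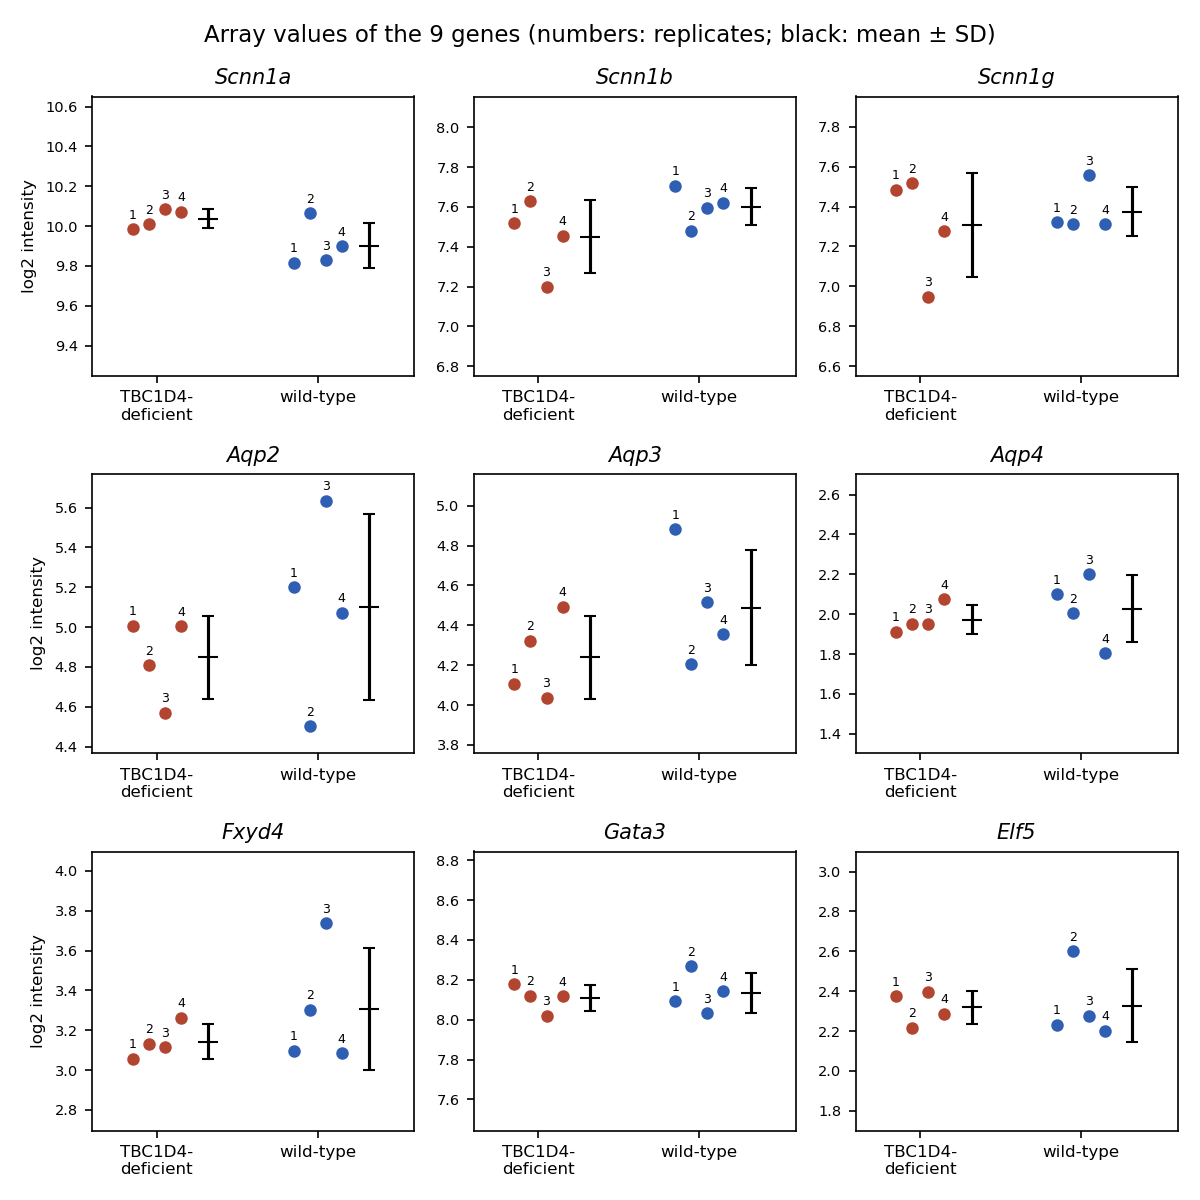
Log2 intensity of the 9 genes on each array, TBC1D4-deficient on the left and wild-type on the right, with replicate numbers beside the points and black bars for mean ± SD (n = 4 each). Every panel spans the same height on the log2 scale and starts at a value of its own; the genotypes overlap in all 9, and the wild-type points of Aqp2 spread most widely.

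**Figure D2:**
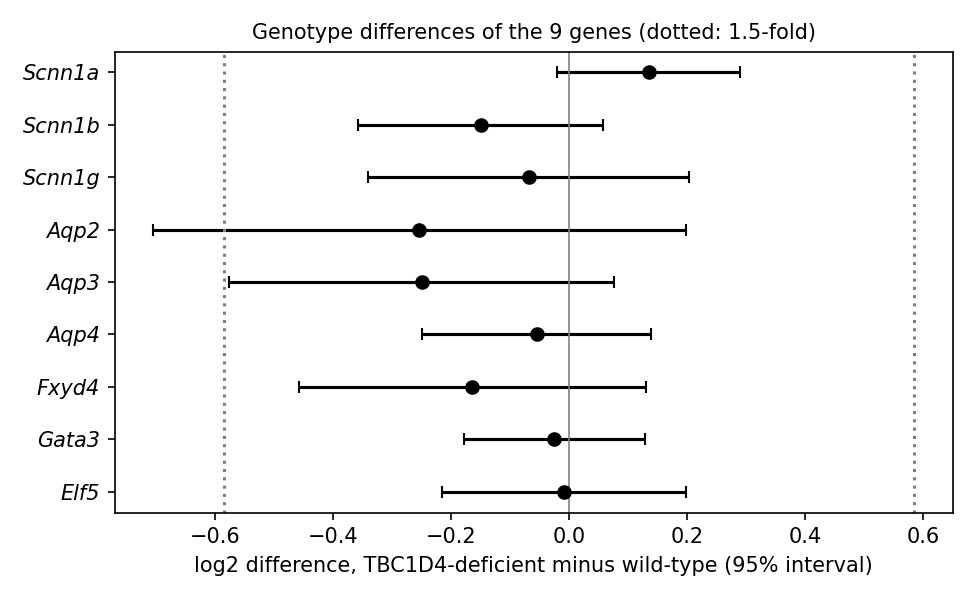
Log2 difference of each gene, TBC1D4-deficient minus wild-type, as points with 95% confidence intervals from limma (n = 4 each); dotted lines mark 1.5-fold. All 9 intervals cross 0, and only that of Aqp2 crosses a dotted line.

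Scnn1a, the alpha subunit without which no channel reaches the surface, was the only one of the 9 genes with a higher mean in TBC1D4-deficient tubules. It stood at 9.98, 10.01, 10.08 and 10.07 in TBC1D4-deficient replicates 1 to 4, against 9.82, 10.06, 9.83 and 9.90 in wild-type replicates 1 to 4. Wild-type replicate 2 lay among the TBC1D4-deficient arrays, and the other 3 wild-type arrays lay below all of them. The difference was 0.14 (-0.02 to 0.29), a ratio of 1.098, with a limma adjusted p of 0.9999 and an exact permutation p of 0.0857. Compared inside each number set, it was 0.13 for 5 to 8 and 0.14 for 9 to 12, and it was 0.07 with the range of the second number in the descriptions as a covariate.

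Scnn1b and Scnn1g encode the beta and gamma subunits, which complete the channel and carry it to full conductance. Scnn1b stood at 7.52, 7.63, 7.20 and 7.46 in TBC1D4-deficient replicates 1 to 4, against 7.71, 7.48, 7.60 and 7.62 in wild-type replicates 1 to 4. TBC1D4-deficient replicate 3 was the lowest of the 8 arrays and wild-type replicate 1 the highest. The difference was -0.15 (-0.36 to 0.06; limma adjusted p = 0.9999, exact permutation p = 0.229), and it was -0.07 without TBC1D4-deficient replicate 3. With the range of the second description number as a covariate it was -0.05. Scnn1g stood at 7.48, 7.52, 6.95 and 7.28 in TBC1D4-deficient replicates 1 to 4, against 7.32, 7.31, 7.56 and 7.31 in wild-type replicates 1 to 4. TBC1D4-deficient replicate 3 was again the lowest array, while TBC1D4-deficient replicates 1 and 2 lay above 3 of the 4 wild-type arrays. Its difference was -0.07 (-0.34 to 0.20; limma adjusted p = 0.9999, exact permutation p = 0.686). It turned to 0.05 without TBC1D4-deficient replicate 3 and was -0.32 and 0.19 within the 2 number sets.

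The balance between the subunits was examined as the log2 ratio within each array. Scnn1b relative to Scnn1a differed by -0.29 between genotypes, and Scnn1g relative to Scnn1a by -0.20. Neither separated the genotypes: exact permutation p was 0.114 and 0.371, and 0.342 and 0.429 after Benjamini-Hochberg adjustment over 3 ratios. Scnn1b relative to Scnn1g differed by -0.08 (exact permutation p = 0.429).

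The genes of the beta and gamma subunits are neighbours on chromosome 7, with 0 protein-coding genes between them in RefSeq. Their values were correlated over the 8 arrays (Pearson r = 0.759, exact permutation p = 0.0422; Spearman rho = 0.659, p = 0.0839), which did not pass after adjustment over 9 relations (0.0803 and 0.126). Without the 2 arrays farthest from the median of Scnn1b, TBC1D4-deficient replicate 3 and wild-type replicate 1, r was 0.548. The 250 bases before each start are shown because the genes are adjacent (RefSeq, GRCm38.p6, plus strand, chr7:121864788-121865037 for Scnn1b and chr7:121734229-121734478 for Scnn1g, 5′ to 3′).
Scnn1b: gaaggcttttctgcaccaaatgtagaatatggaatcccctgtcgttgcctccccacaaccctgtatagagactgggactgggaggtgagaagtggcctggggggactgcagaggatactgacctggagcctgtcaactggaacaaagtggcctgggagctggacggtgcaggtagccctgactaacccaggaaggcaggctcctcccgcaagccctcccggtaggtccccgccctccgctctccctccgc
Scnn1g: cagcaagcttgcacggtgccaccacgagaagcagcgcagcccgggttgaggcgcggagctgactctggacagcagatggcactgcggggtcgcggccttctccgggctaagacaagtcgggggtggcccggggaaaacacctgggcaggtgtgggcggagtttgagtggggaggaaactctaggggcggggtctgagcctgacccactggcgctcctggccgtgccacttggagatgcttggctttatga
Both were searched on both strands for AGATAA, a form of the site that GATA factors bind, and for AGAACA, a half-site of the element bound by mineralocorticoid and glucocorticoid receptors, and neither is in these windows. The guanine and cytosine content was 60.8% for Scnn1b and 65.2% for Scnn1g. Sequences of 7 of the 9 genes were searched, and Scnn1a and Aqp4 were not among them.

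Aqp2, the vasopressin-regulated water channel of the apical membrane, varied most between arrays of all 9 genes. It stood at 5.01, 4.81, 4.57 and 5.01 in TBC1D4-deficient replicates 1 to 4, against 5.20, 4.50, 5.63 and 5.07 in wild-type replicates 1 to 4. Both the highest array, wild-type replicate 3, and the lowest, wild-type replicate 2, were wild-type, and they differed 2.19-fold. The genotypes differed by -0.25 (-0.70 to 0.20; limma adjusted p = 0.9999, exact permutation p = 0.4). Without wild-type replicate 3 the difference was -0.08, without wild-type replicate 2 it was -0.45, and with the range of the second description number as a covariate it was -0.07. The interval reached from 0.613 to 1.15 times the wild-type level.

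The promoter window of Aqp2 is shown because it was the only one of 8 windows, from 7 of the 9 genes, to hold either motif (chr15:99578806-99579055, plus strand, RefSeq, GRCm38.p6; capitals mark the matches).
Aqp2: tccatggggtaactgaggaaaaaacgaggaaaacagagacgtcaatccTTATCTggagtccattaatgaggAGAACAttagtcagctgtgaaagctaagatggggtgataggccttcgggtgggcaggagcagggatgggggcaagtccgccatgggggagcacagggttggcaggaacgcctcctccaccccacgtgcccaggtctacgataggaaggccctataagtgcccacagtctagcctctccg
The first match, read on the minus strand as AGATAA, begins 202 bases before the start, and the second, AGAACA on the plus strand, begins 179 bases before it. Of 32851 mouse promoter windows of the same length, 9.99% hold AGATAA and 16.1% hold AGAACA on either strand.

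Aqp3 and Aqp4 encode the basolateral water channels through which water leaves the principal cell. Aqp3 stood at 4.11, 4.32, 4.04 and 4.49 in TBC1D4-deficient replicates 1 to 4, against 4.88, 4.20, 4.52 and 4.36 in wild-type replicates 1 to 4. Wild-type replicate 1 was the highest and TBC1D4-deficient replicate 3 the lowest, and the genotypes overlapped (difference -0.25, -0.58 to 0.08; limma adjusted p = 0.9999, exact permutation p = 0.2). The difference was -0.09 for arrays 5 to 8 alone and -0.40 for arrays 9 to 12 alone. Without wild-type replicate 1 it was -0.12, and with the range of the second description number as a covariate it was -0.13. Aqp4 lay between 1.91 and 2.08 in TBC1D4-deficient and between 1.81 and 2.20 in wild-type arrays (difference -0.05, -0.25 to 0.14; limma adjusted p = 0.9999).

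Fxyd4 encodes CHIF, a small membrane protein that raises the sodium affinity of the Na,K-ATPase in the collecting duct. It stood at 3.06, 3.13, 3.12 and 3.26 in TBC1D4-deficient replicates 1 to 4, against 3.10, 3.30, 3.74 and 3.09 in wild-type replicates 1 to 4. Wild-type replicate 3 stood above the other arrays, and the ranges of the genotypes overlapped. The difference was -0.16 (-0.46 to 0.13; limma adjusted p = 0.9999, exact permutation p = 0.4), and -0.02 without wild-type replicate 3.

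The set holds a pair of transcription factors. Gata3, a zinc finger factor needed for the nephric duct from which collecting ducts grow, stood at 8.18, 8.12, 8.02 and 8.12 in TBC1D4-deficient replicates 1 to 4, against 8.09, 8.27, 8.03 and 8.14 in wild-type replicates 1 to 4. The arrays of the genotypes were interleaved, and the difference was -0.02 (-0.18 to 0.13; limma adjusted p = 0.9999). Elf5, an ETS factor of principal cells, lay between 2.22 and 2.40 in TBC1D4-deficient and between 2.20 and 2.60 in wild-type arrays, with wild-type replicate 2 the highest (difference -0.0087, -0.22 to 0.20; limma adjusted p = 0.9999).

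The table holds no detection calls. As a guide to dim signal, picked after the values were seen, 990 olfactory receptor genes had a median level of 1.59 and a 95th percentile of 2.50. Aqp4, with means of 1.97 in TBC1D4-deficient and 2.03 in wild-type arrays, and Elf5, with 2.32 and 2.33, lay within that range, and the other 7 genes lay above it. A genotype difference in Aqp4 or Elf5 was thus not measurable apart from background. The same holds for 11 of the 113 genes of the lists that follow, among them Asic3, Ptger4 and Krt19.

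The spread between arrays differed among the 9 genes. The SD over the 8 arrays was 0.36 for Aqp2, 0.27 for Aqp3, 0.23 for Fxyd4 and 0.19 for Scnn1g, and 0.11 for Scnn1a and 0.08 for Gata3. The median over all 18782 genes was 0.117 and the 90th percentile 0.205. In 7 of the 9 genes the SD was above that median. TBC1D4-deficient replicate 3 was the lowest array for Scnn1b, Scnn1g, Aqp3 and Gata3 and the highest for Scnn1a. Wild-type replicate 3 was the highest for Scnn1g, Aqp2, Aqp4 and Fxyd4.

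**Figure D3:**
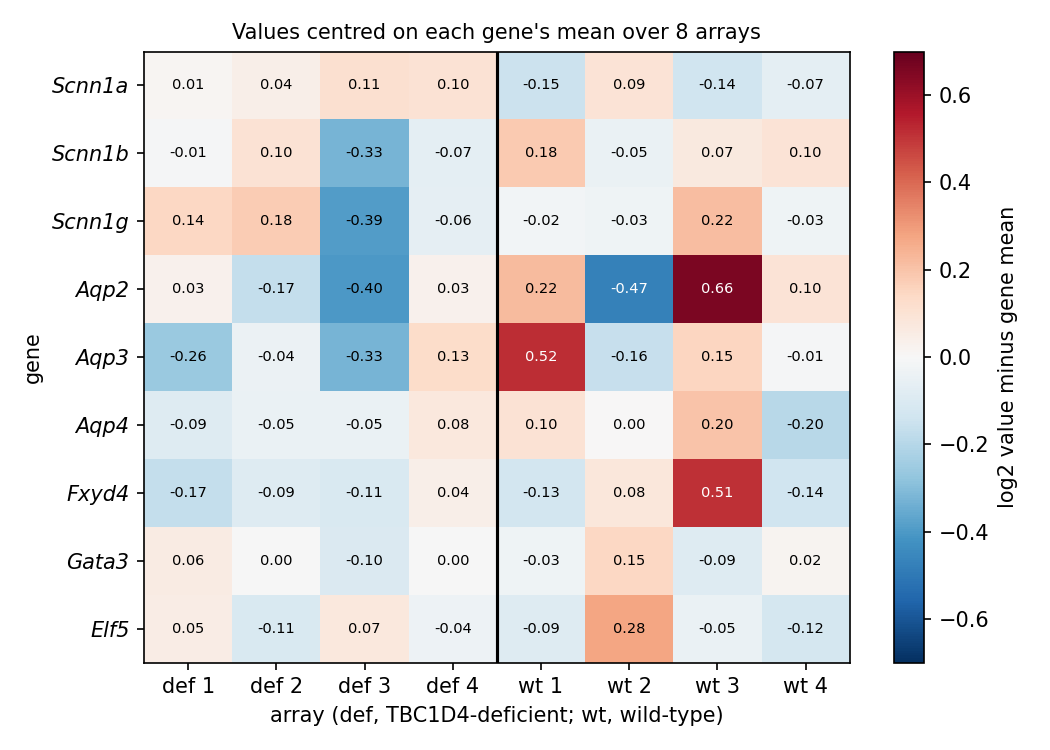
Log2 values of the 9 genes (rows) on the 8 arrays (columns), each minus the gene's mean over the arrays, TBC1D4-deficient (def) left of wild-type (wt). Wild-type replicate 3 is high for Aqp2 and Fxyd4, and TBC1D4-deficient replicate 3 is low for Scnn1b, Scnn1g, Aqp2 and Aqp3.

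Aqp2 was set against each of the 8 other genes over the 8 arrays. It ran opposite to Scnn1a (Pearson r = -0.832, exact permutation p = 0.00642; Spearman rho = -0.857, p = 0.0107), with adjusted values of 0.0514 and 0.0856 over the 8 relations. Leaving out the 2 arrays farthest from the median of Aqp2, wild-type replicates 2 and 3, gave r = -0.776. With Aqp3 r was 0.626 (exact permutation p = 0.0966) and rho 0.738 (p = 0.0458), adjusted to 0.213 and 0.183, and r was 0.744 without those 2 arrays. The other 6 had r from -0.613 to 0.584 with adjusted permutation p from 0.213 to 0.269, and rho from -0.595 to 0.571 with adjusted permutation p from 0.283 to 0.752. With 3 genes the relation rested on those 2 arrays. For Fxyd4 r was 0.554 with them and -0.07 without, for Aqp4 0.518 and 0.20, and for Gata3, where the sign turned, -0.443 and 0.617. Each genotype and each number set holds 4 arrays, too few for a correlation of its own. The correlations pool the genotypes and both ranges of the second description number, so differences between those groups enter r, rho and p.

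Scnn1a was also set against its partner subunits and 6 genes of steroid action, chosen after the values were seen. It ran opposite to Scnn1b (r = -0.75, exact permutation p = 0.0196; rho = -0.833, p = 0.0154) and with Usp2, a deubiquitinase that opposes ENaC removal and is induced by aldosterone (r = 0.789, exact permutation p = 0.0248; rho = 0.833, p = 0.0154). Without wild-type replicates 1 and 3, the 2 arrays farthest from the median of Scnn1a, r was -0.711 and 0.864. With Tsc22d3 (GILZ), a steroid-induced gene, r was 0.754 (exact permutation p = 0.0347; rho 0.762, p = 0.0368) and 0.31 without those 2 arrays, so this relation rested on them. With Hsd11b2, the enzyme that shields the mineralocorticoid receptor from glucocorticoids, r was -0.71 (exact permutation p = 0.0446; rho -0.714, p = 0.0576), and -0.546 without them. The other 4 relations were looser. With Scnn1g r was -0.483 (exact permutation p = 0.231; rho -0.683, p = 0.0701), and with Sgk1, a steroid-induced kinase, 0.549 (exact permutation p = 0.159; rho 0.548, p = 0.171). With the steroid receptor genes r was 0.337 for Nr3c2 (exact permutation p = 0.428; rho 0.0238, p = 0.977) and -0.07 for Nr3c1 (exact permutation p = 0.863; rho 0.0952, p = 0.84). Without the same 2 arrays r was -0.468 for Scnn1g, 0.709 for Sgk1, -0.097 for Nr3c2 and -0.494 for Nr3c1. None of the 9 relations, that of Scnn1b with Scnn1g included, passed after adjustment (smallest 0.0803 for r and 0.0693 for rho). These relations pool both genotypes and both ranges of the second description number, so differences between those groups enter r, rho and p.

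**Figure D4:**
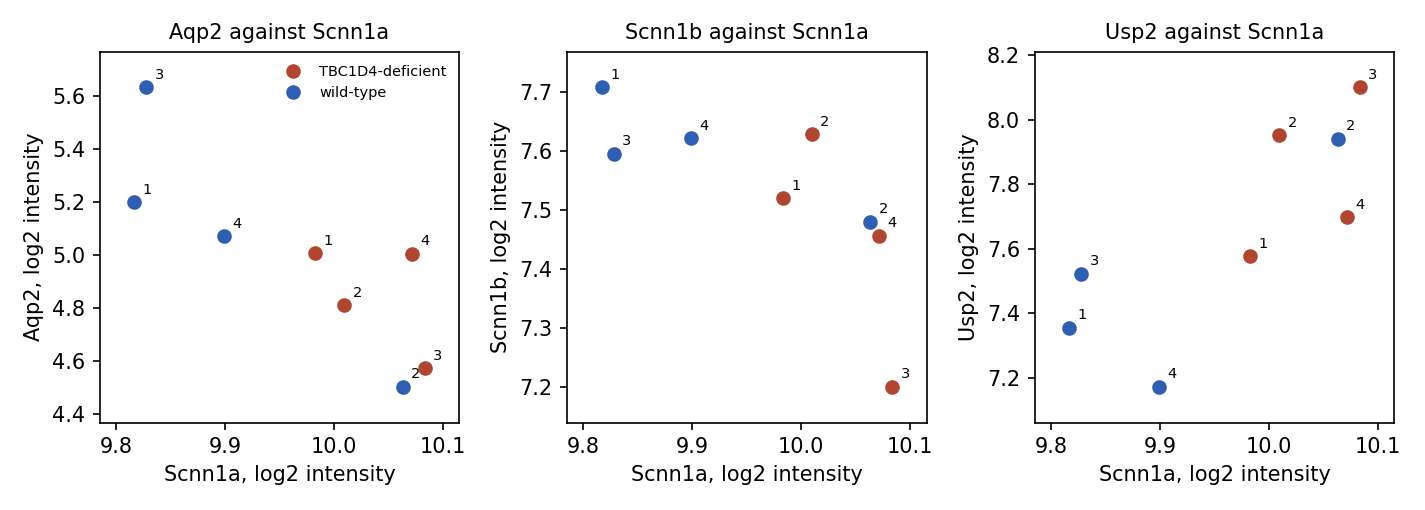
Log2 intensity of Aqp2, Scnn1b and Usp2 against that of Scnn1a, 1 point per array with its replicate number, TBC1D4-deficient and wild-type in different colours. Aqp2 and Scnn1b fall and Usp2 rises along Scnn1a, and wild-type replicate 2 lies apart from the other wild-type arrays along Scnn1a.

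The genes whose pattern over the 8 arrays was most like each of 4 members were taken from about 6750 genes with a mean of at least 5. For Aqp2 they were Adss (r = 0.925), Afg3l1 (0.921), Morn4 (0.911) and Snx17 (0.899), and 3 genes exceeded 0.9. For Scnn1a they were Dclk3 (0.969), Nrbp2 (0.948), Syn3 (0.941) and Fto (0.939), and 12 genes exceeded 0.9. Scnn1b was most like Pggt1b (0.956), Mtch2 (0.921), Tecr (0.912) and Tmem33 (0.91). Scnn1g was most like Ppp2r1b (0.976), Cuta (0.956), Atg4a (0.953) and Atp13a1 (0.927). With 8 arrays and this many genes, values of this size are a description of these arrays only.

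Genes that regulate or process ENaC were spread around 0. Of 22 measured, 13 lay above and 9 below 0, 0 passed the threshold, and the median difference was 0.0061. Tsc22d3 stood at 5.01, 5.34, 5.11 and 4.83 in TBC1D4-deficient replicates 1 to 4, against 4.52, 5.07, 4.64 and 4.80 in wild-type replicates 1 to 4, a difference of 0.32 (0.02 to 0.61). Usp2 differed by 0.33 (-0.03 to 0.70), St14 (matriptase), a membrane protease, by 0.09, and Stx1a, a syntaxin that binds ENaC, by -0.14. Limma adjusted p was 0.9999 for these 4. Wild-type replicate 2 lay within the range of the TBC1D4-deficient arrays for Tsc22d3, as it did for Scnn1a. In 1 of the 22 the genotypes did not overlap, beside 1.85% of all probe sets. This was Nedd4, a ubiquitin ligase related to NEDD4L, which lay between 8.747 and 8.801 in TBC1D4-deficient and between 8.804 and 8.885 in wild-type arrays (difference -0.06, -0.18 to 0.06; limma adjusted p = 0.9999). It and the next 4 genes fall outside the 4 with the smallest p and were picked with their values in view. Nr3c2, the mineralocorticoid receptor, differed by 0.03 (-0.19 to 0.25), and Nedd4l, the ubiquitin ligase that removes ENaC from the membrane, by 0.01 (-0.13 to 0.16). Sgk1, the aldosterone-induced kinase that inhibits NEDD4L, differed by 0.10 (-0.40 to 0.60), and Prss8 (prostasin), a channel-activating protease, by -0.06 (-0.24 to 0.13).

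In vasopressin signalling and AQP2 traffic, 18 of 30 genes lay above and 12 below 0, 0 passed, and the median was 0.01. All 30 had intervals inside 1.5-fold, beside 97.4% of all probe sets. Among them Pde3a, Prkar2b and Ptger4, named here for their low values, averaged within the dim range. Their intervals bound no difference in expression. Avpr1a, the vasopressin V1a receptor, stood at 4.85, 5.10, 4.72 and 4.87 in TBC1D4-deficient replicates 1 to 4, against 5.31, 4.96, 5.28 and 5.02 in wild-type replicates 1 to 4 (difference -0.26, -0.49 to -0.03; limma adjusted p = 0.9999). TBC1D4-deficient replicate 2 lay above wild-type replicates 2 and 4, so the genotypes overlapped. Creb1, a cyclic AMP-responsive transcription factor, differed by 0.13 and Vta1, of the endosomal sorting machinery, by -0.10. Ptger4, a prostaglandin E2 receptor, averaged 2.41 in TBC1D4-deficient and 2.28 in wild-type arrays, within the dim range.

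Among 19 other principal cell and connecting tubule genes, 7 lay above and 12 below 0, 0 passed and the median was -0.03. Hsd11b2 stood at 6.60, 6.20, 5.79 and 6.61 in TBC1D4-deficient replicates 1 to 4, against 6.70, 6.13, 6.72 and 6.55 in wild-type replicates 1 to 4 (difference -0.22, -0.65 to 0.20; limma adjusted p = 0.9999). Its lowest array was TBC1D4-deficient replicate 3, as for Scnn1b and Scnn1g. Slc14a2, the urea transporter of the inner medullary collecting duct, differed by -0.16 and Trpv5, a calcium channel, by -0.12. Of 23 transcription factors of the distal nephron, 11 lay above and 12 below 0, 0 passed and the median was -0.01. Gata2, a relative of Gata3, differed by -0.15, Pax8 by -0.13, Sim1 by -0.15 and Emx2 by -0.15.

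Related channels and pump subunits were measured beside the set. Of 9 other aquaporins, 2 lay above and 7 below 0 and 0 passed, with a median of -0.09. Aqp6, of intercalated cells, stood at 4.65, 6.38, 4.78 and 4.77 in TBC1D4-deficient replicates 1 to 4, against 6.40, 4.73, 6.54 and 5.16 in wild-type replicates 1 to 4 (difference -0.56, -1.61 to 0.49; limma adjusted p = 0.9999). Its 3 high arrays came from both genotypes, and all 3 lay in the higher range of the second description number. Wild-type replicate 4, the remaining array of that range, was next at 5.16, above every array of the lower range. What lies behind this split of Aqp6 was not tested. Aqp7, Aqp11 and Aqp12 differed by -0.26, -0.17 and -0.09. Aqp12 averaged 2.50 in TBC1D4-deficient and 2.59 in wild-type arrays, at the edge of the dim range. Of 8 FXYD and sodium pump genes, 3 lay above and 5 below 0, 0 passed and the median was -0.0085. The 4 with the smallest p were Atp1b3 (0.09), Fxyd1 (-0.13), Fxyd5 (-0.06) and Atp1b2 (-0.06). Fxyd1 averaged 2.51 in TBC1D4-deficient and 2.64 in wild-type arrays, also at the edge of the dim range. Of 5 acid-sensing channels, the relatives of ENaC, 2 lay above and 3 below 0, 0 passed and the median was -0.02. Among them Asic1 and Asic4 differed by 0.07 each and Asic2 by -0.07. Asic3 averaged 1.82 in TBC1D4-deficient and 1.95 in wild-type arrays, within the dim range.

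**Figure D5:**
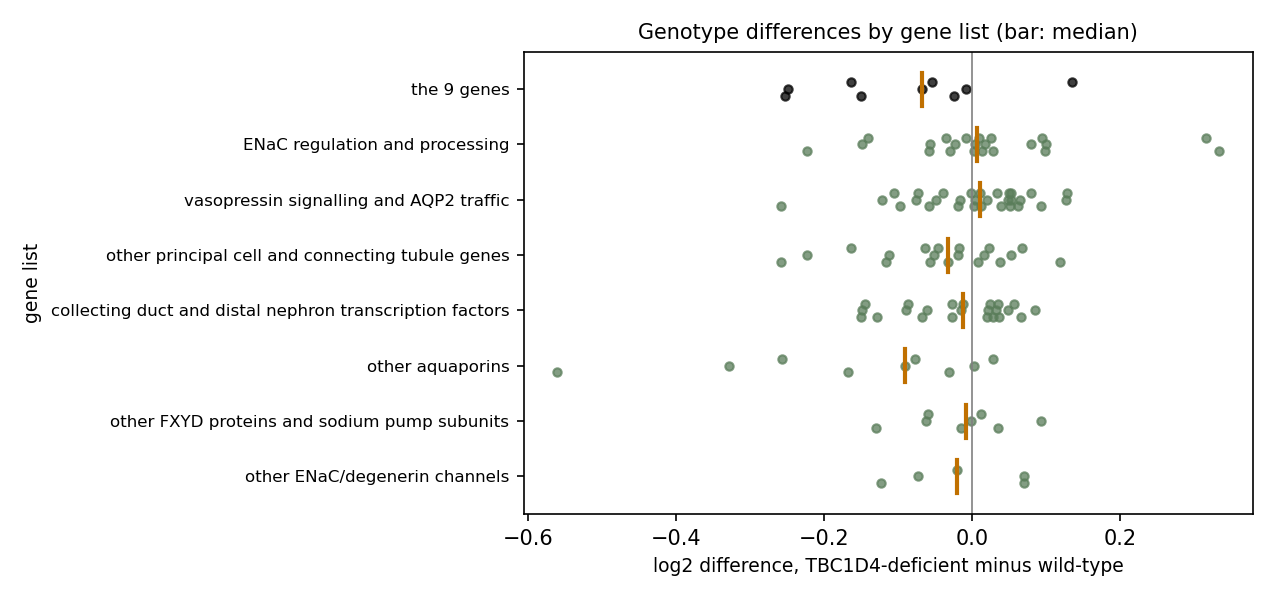
Log2 differences, TBC1D4-deficient minus wild-type, of the 9 genes and of 7 gene lists, 1 point per gene with a bar at the median. The medians lie between -0.09 and 0.01, and the widest points are Aqp6 on the low side and Tsc22d3 and Usp2 on the high side.

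Markers of other tubules and cells were read beside the set, and their part in its values was not tested. Sums of intensities, also given, mostly follow the brightest probe sets of a list. Each list was averaged per array after every gene's own mean was subtracted. For the proximal tubule this average was -1.04, 0.24, 0.07 and 0.13 in TBC1D4-deficient replicates 1 to 4, against -0.55, -0.27, 0.72 and 0.71 in wild-type replicates 1 to 4. The proximal tubule mean differed by -0.30 (exact permutation p = 0.543). Its genes lay below 0 in difference in 18 of 18, where 49.1% of all probe sets were above 0. Genes of a list can vary together, so such counts are not independent observations. Summed intensities were 1481 to 3757 in TBC1D4-deficient and 2083 to 4993 in wild-type arrays. For intercalated cells it was -0.22, 0.22, -0.17 and -0.10 in TBC1D4-deficient replicates 1 to 4, against 0.17, -0.11, 0.30 and -0.10 in wild-type replicates 1 to 4. Of these genes 8 of 11 lay below 0, with sums of 1832 to 1885 in TBC1D4-deficient and 1769 to 1928 in wild-type arrays. The brightest of the list, Rhcg and Atp6v1b1, named with their values in view, differed by 0.10 and 0.13. Wild-type replicate 3, the array with the highest Aqp2 and Fxyd4, was the highest in both lists. It was also the highest for the thick ascending limb (0.23), endothelium (0.23) and fibroblast and smooth muscle (0.16). It was not the highest for the distal convoluted tubule, connecting tubule, podocyte or macrophage and leukocyte lists. TBC1D4-deficient replicate 3, low in Scnn1b, Scnn1g and Aqp3, was not the lowest in the proximal tubule or intercalated cell list. It was the lowest in the connecting tubule list.

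For the connecting tubule, which itself expresses ENaC, the average was 0.0025, -0.02, -0.06 and -0.04 in TBC1D4-deficient replicates 1 to 4, against -0.03, 0.07, 0.0094 and 0.06 in wild-type replicates 1 to 4. The connecting tubule mean differed by -0.05, with 4 of 4 genes below 0 and sums of 4835 to 4975 in TBC1D4-deficient and 4924 to 5142 in wild-type arrays. Its brightest genes were Calb1 (mean 11.09) and Kcnj1 (10.60), and Kcnj1 is also in the thick ascending limb list. How much of these signals came from the DCT itself was not tested. The thick ascending limb mean differed by -0.07, with 6 of 8 genes below 0 and sums of 3910 to 4160 and 4027 to 4431. The endothelial mean differed by -0.28, with 13 of 13 below 0 and sums of 129.6 to 176.4 and 175.1 to 204.6. Of these 13 endothelial genes 8 had an unadjusted limma p below 0.05, beside 2.9% of all probe sets, and 0 passed after adjustment. In 2 of them, Tek and Ptprb, named with their values in view, the genotypes did not overlap, beside 1.85% of all probe sets. No marker was listed at 0 on any array. Over 9 marker lists, exact permutation p ran from 0.0571 for endothelium to 0.886 for podocytes, and 0.471 was the smallest after adjustment. With the proximal tubule mean as a covariate the differences of Scnn1a, Scnn1b and Scnn1g were 0.14, -0.16 and -0.07. Those of Aqp2, Aqp3 and Aqp4 were -0.22, -0.25 and -0.05. Those of Fxyd4, Gata3 and Elf5 were -0.12, -0.04 and -0.04. Without this covariate Aqp2 was at -0.25 and Fxyd4 at -0.16.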

How the data were processed

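Gene expression of sorted tubules was read on 8 one-colour Affymetrix arrays with a biotin label, from cDNA made with 100 ng of RNA per the labels' protocols. The values deposited by the authors are linear intensities of 28371 probe sets, with a column for each sample. Affymetrix Power Tools is named in the submitters' processing notes, and how it summarised and normalized the arrays is not given in the sources consulted. Array medians of 8.41 to 9.03 show values already on a common scale, so a shift common to most genes could go unseen. Log2 was taken of the deposited intensities with no pseudocount and no filter.

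Genotypes, assigned from the titles, were compared in R 4.3.3 with limma 3.58.1 (lmFit, eBayes, 2-sided, no covariate) over 23039 probe sets with at least 1 symbol in the platform annotation, with Benjamini-Hochberg adjustment. Of all probe sets, 21158 had exactly 1 symbol, 1881 several and 5332 none. Exact 2-sided permutation tests used all 70 assignments of arrays, so 0.0286 is the smallest p possible, or all orders of the arrays for correlations (Python 3.11.15, scipy 1.17.1). A gene was read by its brightest probe set with exactly 1 symbol. The members and the gene lists were chosen with earlier results of these data known. The genes named were the members, Tbc1d4, Slc12a3 and Pvalb, up to 4 genes with the smallest p of each pathway list, up to 4 of each marker list, and the 4 genes most like each of Aqp2, Scnn1a, Scnn1b and Scnn1g. Exceptions are marked where they appear. The fit was tested on simulated data. Chromosomes, gene order and promoter sequences come from RefSeq (GRCm38.p6). The number of arrays, 4 per genotype, limits the precision. The sample descriptions hold 2 numbers of unstated meaning, one from 5 to 12 and one from 3204 to 3256, whose sets served as covariates. The ranges of the second number are unevenly split between the genotypes. Alternatives were filters, rows, normalization, a pseudocount, the eBayes prior, array weights, blocks and covariates from the labels, and leaving out each array.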

Additional observations from a re-analysis of the deposited data

Results flagged for a closer look

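Of 78 groups of 4 arrays tested for 39 genes, 3 held an array whose gap to the nearest other array, as a share of the group's range, passed Dixon's 95% critical value. Chance flags about 1 in 20 such groups. For Scnn1g in wild-type arrays the share was 0.956, with wild-type replicate 3 at 7.56 and the others at 7.31 to 7.32. For Aqp6 in TBC1D4-deficient arrays it was 0.928, with replicate 2 at 6.38 and the others at 4.65 to 4.78. For Aqp7 in TBC1D4-deficient arrays it was 0.837, with replicate 1 at 2.22 and the others at 2.74 to 2.84.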

How the results depend on the processing

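No alternative brought any of the 9 genes past the threshold, with limma adjusted p from 0.997 to 1 in all settings run. Scnn1a stayed above 0 (0.07 to 0.19) and Scnn1b (-0.21 to -0.05), Aqp2 (-0.45 to -0.07) and Aqp3 (-0.40 to -0.09) below 0 in all alternatives that gave a value. Signs turned for 5 genes, and the cause was not tested: Elf5 was 0.0028 with quantile normalization and 0.012 with median centring, and within arrays 9 to 12 Elf5 was 0.079, Fxyd4 0.0028, Gata3 0.032 and Scnn1g 0.19. Scnn1g was 0.024 with the range of the second description number as a covariate. Leaving out 1 array at a time gave -0.13 to 0.0030 for Aqp4, -0.051 to 0.082 for Elf5, -0.059 to 0.020 for Gata3 and -0.14 to 0.052 for Scnn1g. The number of genes above 0 was 2 with quantile normalization, median centring or the second-number covariate, 5 (with 4 below) within arrays 9 to 12, and 1 to 3 when leaving out an array. With only probe sets of mean log2 at least 5, 0 were called by limma, since Tbc1d4 averages 4.61 over the 8 arrays, and 206 had an unadjusted p below 0.05; Aqp2, Aqp3, Aqp4, Fxyd4 and Elf5 were then not in the fit. The mean of several probe sets was not run, as each gene had 1. Same-numbered arrays of the genotypes deviated together in part for number 1 (r of deviations 0.385). They did not for numbers 2 to 4 (-0.199, 0.0264 and 0.022). With the replicate block the 9 differences were unchanged by construction, for example 0.14 for Scnn1a, and 1 probe set was called. A dim signal limits Aqp4 and Elf5 and, outside the set, 11 genes of the lists, among them Asic3, Ptger4 and Krt19. Aqp12 and Fxyd1 lay at the edge of the dim range.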

Other observations

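Slc4a1, the basolateral anion exchanger of acid-secreting intercalated cells, stood at 5.73, 6.87, 5.70 and 5.86 in TBC1D4-deficient replicates 1 to 4, against 7.10, 5.79, 7.13 and 6.04 in wild-type replicates 1 to 4. TBC1D4-deficient replicate 2 and wild-type replicates 1 and 3 were the 3 high arrays, the same 3 as for Aqp6. These 3 and wild-type replicate 4, the next highest for both genes, make up the higher range of the second description number. The arrays thus separated by that range for both genes, and the cause was not tested. Aqp2 was high in wild-type replicates 1 and 3 but not in TBC1D4-deficient replicate 2. Krt19, a keratin of simple epithelia chosen with its values in view, stood at 2.80 in wild-type replicate 3 and at 2.29 to 2.40 in the other 7 arrays. Its means of 2.33 in TBC1D4-deficient and 2.44 in wild-type arrays lay within the dim range of the olfactory receptor genes.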
